A study of Mus musculus with 6 samples.

Results

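The neuronal cytoskeleton genes followed here are the building blocks of microtubules and neurofilaments and the proteins that steer them in growing neurites. They were chosen by symbol, at a time when earlier results of these data were known. The set held the numbered alpha, beta and gamma tubulins, the 4 stathmins and the 3 neurofilament subunits. It also held named microtubule-associated proteins, further intermediate filament genes, growth cone membrane proteins and collapsin response mediator proteins (CRMPs). The choice gave 42 of the 19938 genes with a probe set of their own on the array. Of these, 36 exceeded the array-wide median in 3 or more of the 6 arrays and were tested, among 11424 tested genes in all. Tuba3b, Tubb4a, Dpysl4, Dcx, Nefl and Nefm did not pass that filter and have no test.

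Microtubules are hollow polymers of alpha and beta tubulin pairs that grow from gamma tubulin templates. In neurons they fill the axon and dendrites, are stabilised by microtubule-associated proteins, and are kept dynamic at the growth cone by stathmins and CRMPs. Neurofilaments and related intermediate filaments give the axon its calibre, and GAP43, BASP1 and the MARCKS proteins organise actin under the growth cone membrane. Many of these genes mark neuronal differentiation. PAX6 is a transcription factor that controls progenitor renewal and neurogenesis in the developing brain.

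The cells were N2A, an established mouse neuroblastoma line with neuronal traits that extends neurites when it differentiates. All 6 cultures were transiently transfected with 1.5 µg of a hairpin (shRNA) vector. In it the hairpin is driven by a U6 promoter on a plasmid that also carries eGFP. Total RNA was taken up to 3 days after transfection. The 3 control cultures received a vector with no target and the 3 knockdown cultures a vector against Pax6. Each group carried a hairpin vector, so both share the transfection itself, and untransfected cells in a culture are part of its RNA. The study describes the samples as biological replicates, and their titles give only a replicate number.

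Values are log2 intensities per probe set as deposited, and differences are given as knockdown minus control, from 3 arrays in each group (n = 3). A gene was called higher or lower where limma's adjusted p, corrected over all 11424 tested genes, passed a false discovery rate (FDR) of 10%, the study's threshold. A log2 level depends on the probes as well as on the transcript, so differences between groups were taken within a probe set, and levels were set against other genes or the array median only to describe how bright a probe set was. Pax6, the targeted gene, was at 8.79, 8.82 and 8.81 in control cells and at 8.48, 8.30 and 8.50 after knockdown, all lower than any control (log2 fold change -0.38, SE 0.071, limma adjusted p = 0.0382). That call was lost when any 1 control array or knockdown replicate 3 was left out, although the difference stayed from -0.42 to -0.37 in these fits.

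The cytoskeleton genes were slightly higher in the knockdown almost throughout, with small differences of which few passed the test. Dpysl2, Map4 and Basp1 were called higher, 0 were called lower, and 33 of the 36 did not pass. The share called higher was 8.33%, beside 2.79% of all tested genes called higher and 3.88% called lower. At an unadjusted p under 0.05 there were 7 of the 36, all higher, or 19.4%, beside 18.8% of all tested genes in either direction. In 18 members every knockdown array lay above every control array, and in 0 every one lay below. That is 50% of the members, beside 13.9% of all tested genes wholly above and 11.7% wholly below. In Tuba1a, Tuba8, Crmp1 and Dpysl3 the gap between the groups was too small to show at 2 decimals.

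The difference was above 0 in 35 of the 36 tested members, or 97.2%, beside 55.5% of all tested genes, and Stmn3 was the exception. The median difference of the members was 0.093 on the log2 scale, with a range from -0.06 to 0.30, and that of all tested genes was 0.017. The median level of the tested members was 11.73, above the array medians of 7.49 to 7.59, so they were also set beside genes of like level. Among the tested genes at or above 11.73, 53.6% of 1236 genes had a difference above 0 and 19.7% had groups that lay wholly apart upward. The 18 members in that range had 17 differences above 0, a median of 0.067 and 61.1% of groups wholly apart upward. In bulk RNA, fewer or more cells of a type and less or more RNA per cell cannot be told apart.

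**Figure D1:**
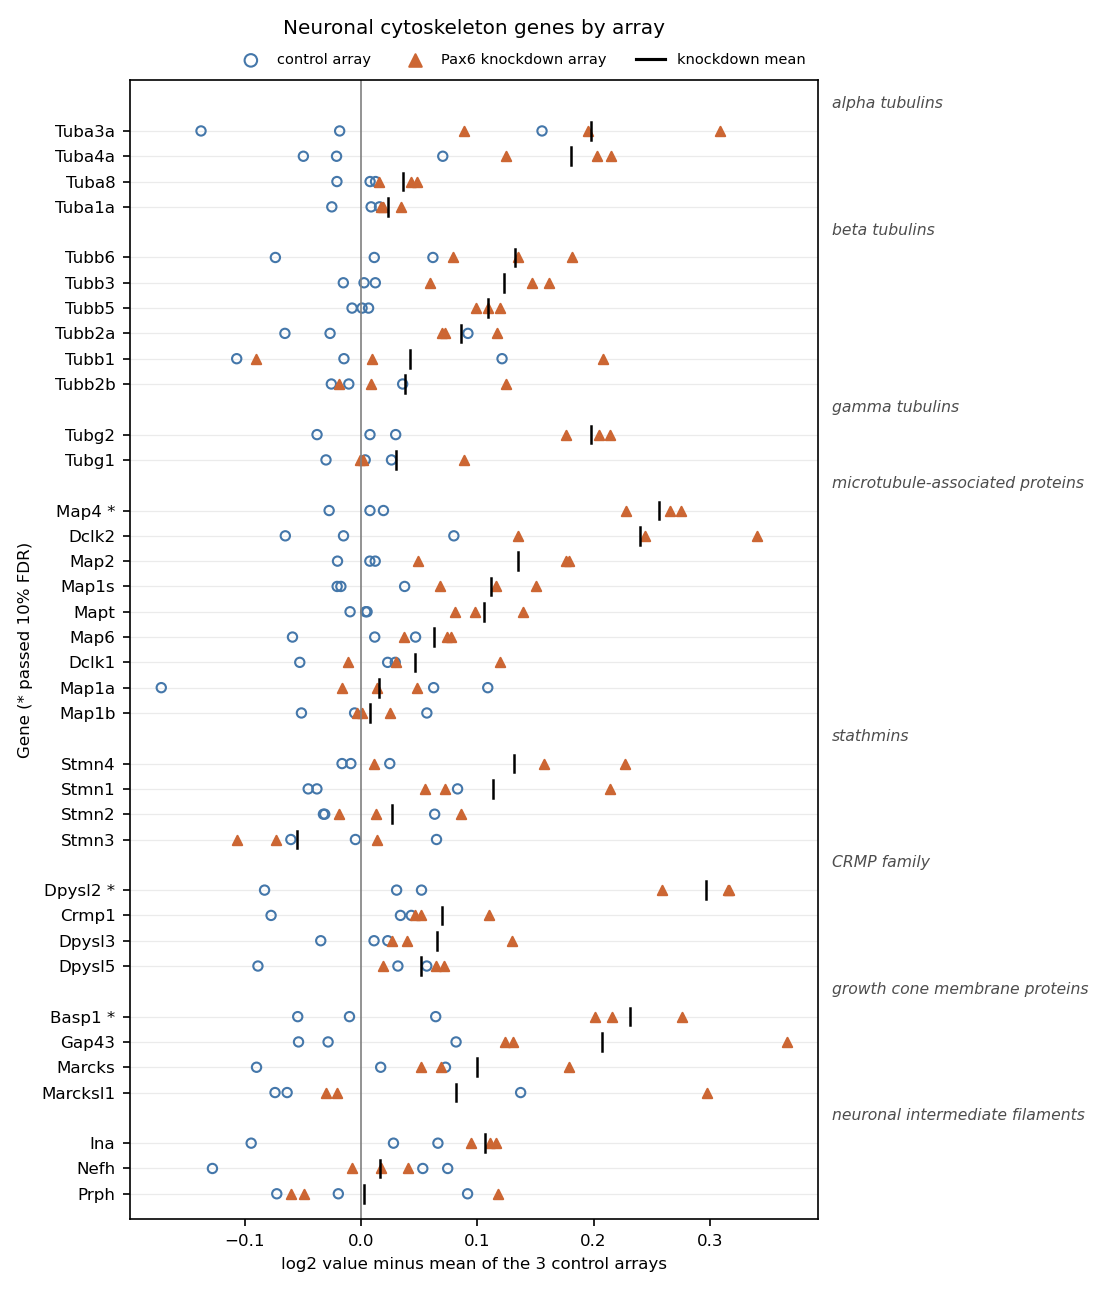
Each tested cytoskeleton gene in every array, as the distance of its log2 value from the control mean (horizontal axis), grouped by role. Open circles are control arrays, triangles are Pax6 knockdown arrays and the black bar is the knockdown mean; an asterisk marks Dpysl2, Map4 and Basp1, which passed 10% FDR. The knockdown mean lies right of 0 for 35 of 36 genes and left of it for Stmn3.

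**Figure D2:**
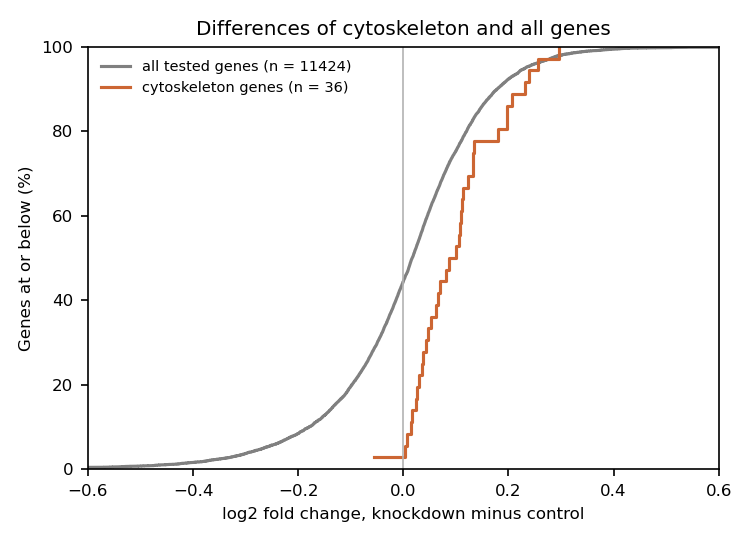
Share of genes (vertical axis, %) with a log2 fold change at or below the value on the horizontal axis, for 11424 tested genes (grey) and for the 36 tested cytoskeleton genes (orange). The horizontal axis is cut, and a few of all the tested genes lie beyond it. The orange curve crosses 0 near the bottom, since 1 gene lies below 0, and its median stands at 0.093 against 0.017 for the grey curve.

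Dpysl2 encodes CRMP2, which binds tubulin dimers and promotes axon growth, and it had the largest difference of the 36 tested members. Its probe set (10420988) read 12.14, 12.26 and 12.28 in control cells and 12.54, 12.48 and 12.54 after knockdown. All 3 knockdown arrays were higher than any control array. The means were 12.23 ± 0.072 and 12.52 ± 0.033 (SD, n = 3), and the difference was 0.30 on the log2 scale (limma adjusted p = 0.0524, SE 0.063, 95% confidence interval 0.15 to 0.44), a rise of 22.9% in signal.

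Map4 encodes the broadly expressed microtubule-associated protein that stabilises microtubules in many cell types. Its probe set (10589438) read 11.41, 11.44 and 11.46 in control cells and 11.66, 11.71 and 11.70 after knockdown. The groups stood well apart, and the rise was of like size for each replicate number, at 0.25, 0.27 and 0.25. The difference was 0.26 on the log2 scale (limma adjusted p = 0.0557, SE 0.055, 95% confidence interval 0.13 to 0.38), or 19.4% in signal. A second, dimmer Map4 probe set went from a mean of 7.49 to 7.67 with groups that overlapped. With the mean of both probe sets the log2 fold change was 0.22 and Map4 no longer passed.

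Basp1 encodes a myristoylated membrane protein that gathers phosphoinositides and actin at the growth cone. Its probe set (10427895) read 12.54, 12.42 and 12.46 in control cells and 12.75, 12.69 and 12.67 after knockdown, again without overlap. The difference was 0.23 on the log2 scale (limma adjusted p = 0.0912, SE 0.061, 95% confidence interval 0.09 to 0.37), or 17.4% in signal. The adjusted p of Basp1 lay just inside the threshold. All 3 calls were lost when control replicate 1, 2 or 3 or knockdown replicate 3 was left out, fits in which 7 to 52 of all tested genes were called higher, and Basp1 was also lost without knockdown replicate 1, while their log2 fold changes stayed between 0.20 and 0.32 in these fits.

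Control and knockdown arrays share replicate numbers, and arrays of the same number deviated together, so the fit was also run with the replicate number as a block. With this replicate block 7 members were called higher and 0 lower, or 19.4%, beside 8.96% of all tested genes called higher and 8.91% called lower. The 7 were Dpysl2 (adjusted p = 0.0271), Map4 (0.0285), Basp1 (0.0395), Dclk2 (0.0447), Tubg2 (0.0567), Gap43 (0.0613) and Tuba4a (0.0769). Of the 36 members, 26 had a positive difference in all 3 pairs, and the matching share of all tested genes was not counted. The median member difference was 0.13 in pair 1, 0.040 in pair 2 and 0.069 in pair 3, beside 0.038, -0.019 and 0.026 over all tested genes.

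**Figure D3:**
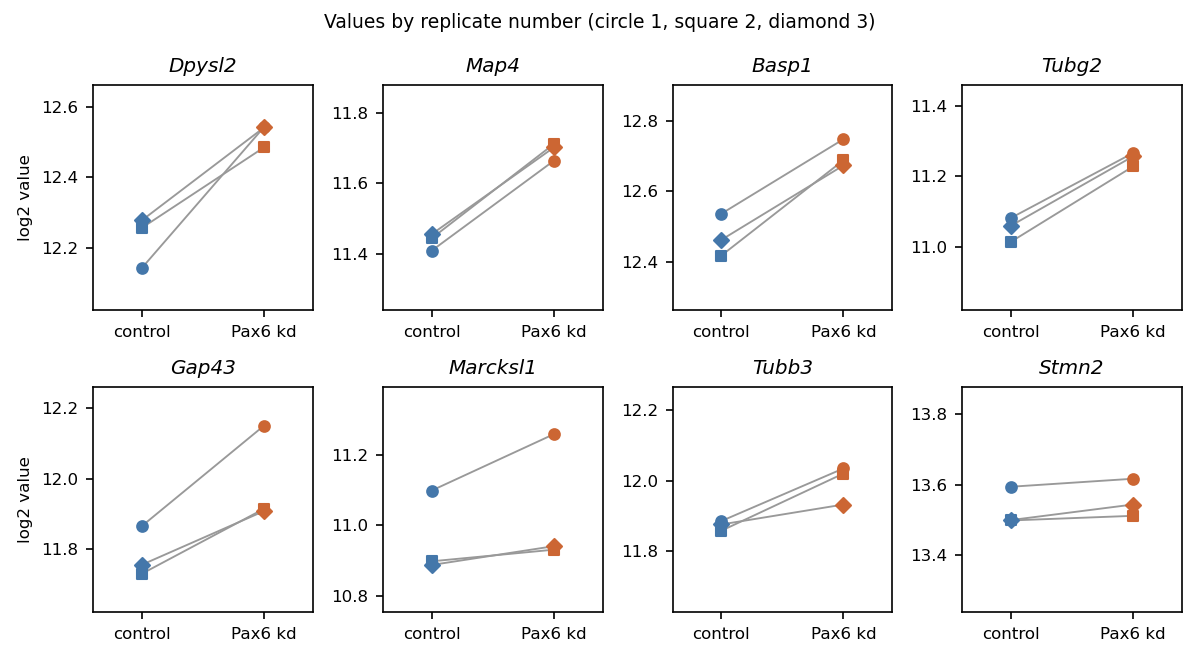
Log2 values (vertical axis, each panel spanning the same height) of 8 cytoskeleton genes in control and Pax6 knockdown (kd) arrays, with lines joining arrays of the same replicate number (circle 1, square 2, diamond 3). Every line rises; Gap43 and Marcksl1 show replicate 1 standing above replicates 2 and 3 in both groups, while for Stmn2 the lines are nearly flat, at 0.02, 0.01 and 0.04.

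Sequence upstream of the start was available from RefSeq for 26 of the 42 genes. Dpysl2 and Gap43 had no entry. The promoters of Basp1 and Map4, which were called higher, and of Tubg2, the member next in order of adjusted p, are printed. They show what lies in front of a listed start of the genes that moved most clearly. Each is the 250 bases before the start on GRCm38.p6, read 5′ to 3′ on the gene's strand, with GC boxes (GGGCGG) and CCAAT boxes (CCAAT) in capitals on either strand. Basp1 lies at chr15:25413765-25414014 on the minus strand, the first listed start of Map4 at chr9:109931524-109931773 on the plus strand, and Tubg2 at chr11:101155634-101155883 on the plus strand. The annotated Map4 gene begins further upstream, at 109929841, so the Map4 window lies within the gene's span. The Tubg2 window runs slightly past the annotated gene start at 101155874.
Basp1: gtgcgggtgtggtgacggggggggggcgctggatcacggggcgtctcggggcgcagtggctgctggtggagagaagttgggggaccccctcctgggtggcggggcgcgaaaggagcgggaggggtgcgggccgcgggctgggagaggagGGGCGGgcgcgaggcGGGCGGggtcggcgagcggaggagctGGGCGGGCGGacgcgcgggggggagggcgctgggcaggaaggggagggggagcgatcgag
Map4: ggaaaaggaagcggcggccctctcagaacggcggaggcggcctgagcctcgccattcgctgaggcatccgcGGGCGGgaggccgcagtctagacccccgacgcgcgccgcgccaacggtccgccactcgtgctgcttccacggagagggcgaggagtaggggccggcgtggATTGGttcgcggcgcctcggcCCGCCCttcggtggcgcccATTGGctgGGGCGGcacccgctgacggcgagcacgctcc
Tubg2: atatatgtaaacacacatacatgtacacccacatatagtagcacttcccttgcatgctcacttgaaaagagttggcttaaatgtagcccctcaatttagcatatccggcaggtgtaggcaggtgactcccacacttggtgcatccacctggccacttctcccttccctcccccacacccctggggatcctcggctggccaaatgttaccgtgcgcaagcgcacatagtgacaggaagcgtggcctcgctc
The Basp1 window held 4 GC boxes, counting a pair that overlap, and was 78.8% G or C. The Map4 window held 3 GC boxes and 2 CCAAT boxes at 74% G or C. The Tubg2 window, at 52.8% G or C, held neither, and it held 6 E-boxes (CANNTG). Over all 30 listed starts of the cytoskeleton genes, 53.3% had a GC box, beside 32.7% of 32851 promoter windows of all genes, and 36.7% had a CCAAT box, beside 33.8%. The E-box was found in 63.3% beside 66.2%, and TATAAA in 16.7% beside 12.4%. The homeodomain core TAATTA was found in 6.67% beside 4.84%, and TTCACGC, a core of paired-domain sites, in 0% beside 1.03%. The cytoskeleton windows had a median of 60.2% G or C, from 41.6% to 81.2%, beside 52.4% for all, and base composition was not matched between these sets. These are matches of letters and not binding sites.

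The gamma tubulins seed new microtubules. Tubg2, the gamma tubulin enriched in brain, read 11.08, 11.02 and 11.06 in control cells and 11.27, 11.23 and 11.26 after knockdown. The groups were clearly apart, and the log2 fold change of 0.20 (adjusted p = 0.106, SE 0.056) fell just outside the threshold, which it passed without knockdown replicate 2. Tubg1, the widely expressed copy, read 13.08, 13.05 and 13.10 against 13.16, 13.08 and 13.07, with overlapping groups and a log2 fold change of 0.03 (SE 0.059).

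Alpha tubulins likewise held genes with larger and with almost no difference, and 0 of the 4 tested passed by limma. At an unadjusted p under 0.05 there was 1 of the 4, beside 18.8% of all tested genes. Tuba4a, an alpha tubulin found in mature neurons and platelets, read 8.94, 8.82 and 8.84 in control cells and 9.08, 8.99 and 9.07 after knockdown. The groups did not overlap, but with a log2 fold change of 0.18 (adjusted p = 0.168, SE 0.063) it did not pass without the replicate block. Tuba3a had the largest difference of the tested alpha tubulins, 0.20 (SE 0.092, adjusted p = 0.299), but is a dim probe set whose arrays overlapped: 7.94, 7.64 and 7.76 in control against 7.87, 8.09 and 7.98. Tuba1a, the main alpha tubulin of young neurons, was nearly level at 14.21, 14.20 and 14.17 against 14.23, 14.21 and 14.21 (log2 fold change 0.02, 95% confidence interval -0.10 to 0.15). Tuba8 had a log2 fold change of 0.04. Tuba1b and Tuba1c were met only in probe sets that name several alpha tubulins and so have no value of their own; the 4 such probe sets had differences between 0.004 and 0.060. Tuba3b, below the array median on all arrays and so not tested, had means of 5.15 and 5.47, a difference of 0.31 with its knockdown arrays all above the controls.

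The beta tubulins had 6 tested members with differences from 0.04 to 0.13, of which 0 passed by limma and 0 reached an unadjusted p under 0.05. Tubb3, the neuron-specific class III tubulin widely used as a marker of neuronal differentiation, read 11.89, 11.86 and 11.88 in control cells and 12.04, 12.02 and 11.93 after knockdown. The knockdown arrays were all above the controls, at a difference of 0.12 (adjusted p = 0.307, SE 0.058, 95% confidence interval -0.01 to 0.26). Tubb5, a widely expressed beta tubulin, showed a tight separation at 13.88, 13.89 and 13.90 against 14.00, 13.99 and 14.01, a log2 fold change of 0.11 (adjusted p = 0.324, SE 0.054). Tubb6 had the largest difference, 0.13 (SE 0.064, adjusted p = 0.316), from 11.96, 11.82 and 11.91 to 11.98, 12.03 and 12.08. Its lowest knockdown array lay barely above its highest control. Tubb2b, a tubulin required for migration of cortical neurons, read 12.91, 12.96 and 12.90 against 12.93, 13.05 and 12.90, with overlap and a log2 fold change of 0.04. Tubb2a (0.09) and the platelet tubulin Tubb1 (0.04) overlapped as well. Tubb4b was met only in probe sets it shares with Zfp646, with differences of 0.076 and 0.049. Tubb4a, an axonal and myelin tubulin, lay below the array median with means of 6.84 and 6.94.

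Of the 9 tested microtubule-associated protein genes, Map4 passed and 5 had groups that lay wholly apart, with a median difference of 0.11. Dclk2, a doublecortin-like kinase that binds microtubules, had a log2 fold change nearly as large as that of Map4, with values of 9.43, 9.34 and 9.29 in control and 9.69, 9.49 and 9.60 in knockdown. Its arrays were more scattered within each group, so that 0.24 (SE 0.075) gave an adjusted p = 0.133. Map2, the dendritic stabiliser, read 10.72, 10.72 and 10.69 against 10.89, 10.76 and 10.89, and Mapt, the axonal protein tau, read 10.68, 10.70 and 10.70 against 10.83, 10.77 and 10.79. Neither pair of groups overlapped, and neither passed: the log2 fold changes were 0.13 (SE 0.062, adjusted p = 0.291) for Map2 and 0.11 (SE 0.055, adjusted p = 0.354) for Mapt. Map1s stood at 0.11, also without overlap. Map6 (0.06), Dclk1 (0.05), Map1a (0.02) and Map1b (0.01) overlapped. Dcx, the doublecortin of migrating neurons, was below the array median on all arrays, with means of 6.50 and 6.42.

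The stathmins, which bind tubulin dimers and promote microtubule turnover, had 4 tested members, 0 of them called by limma, 0 at an unadjusted p under 0.05 and 0 with groups apart. Stmn4 had the largest difference, 0.13 (SE 0.071, adjusted p = 0.373), reading 9.29, 9.25 and 9.24 in control and 9.42, 9.27 and 9.49 in knockdown, where knockdown replicate 2 fell inside the control range. Stmn1 was at 0.11 in both of its probe sets, with overlap. Stmn2, also called SCG10 and a neuron-specific growth cone protein, was level at 13.59, 13.50 and 13.50 against 13.62, 13.51 and 13.54 (log2 fold change 0.03, 95% confidence interval -0.12 to 0.17). Stmn3 was the 1 tested member with a difference below 0, at -0.06 (95% confidence interval -0.20 to 0.09), and the difference was below 0 in each pair, at -0.05, -0.07 and -0.05. A second, much dimmer Stmn3 probe set went from a mean of 6.15 to 5.97, a difference of -0.19, with groups that overlapped.

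The growth cone membrane proteins had the highest median difference of any of these groups, 0.15 over 4 tested genes. All 4 were positive in all 3 pairs, beside 26 of the 36 tested members. Besides Basp1, Gap43, a protein kinase C substrate abundant in regenerating axons, read 11.87, 11.73 and 11.76 in control cells and 12.15, 11.92 and 11.91 after knockdown. The groups did not overlap, though knockdown replicate 1 stood far above the others, and so did control replicate 1. The log2 fold change was 0.21 (SE 0.083, adjusted p = 0.233), against an adjusted p of 0.0613 with the replicate block. Marcksl1 showed the same stand-out replicate 1, with 11.10, 10.90 and 10.89 against 11.26, 10.93 and 10.94, and a log2 fold change of 0.08 (SE 0.11). Marcks was at 0.10, with overlap.

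Among the 4 tested CRMPs, Dpysl2 was the 1 called. Crmp1, Dpysl3 and Dpysl5, which act in semaphorin signalling to the cytoskeleton, had log2 fold changes of 0.07, 0.07 and 0.05, and their 95% confidence intervals reached from -0.07 to 0.21, from -0.07 to 0.20 and from -0.09 to 0.20. Crmp1 and Dpysl3 had groups apart by a narrow margin and Dpysl5 did not. Dpysl4 was below the array median on all arrays and not tested, with means of 7.01 and 7.22, a difference of 0.22 with its knockdown arrays all above the controls.

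The neuronal intermediate filaments were the group nearest to no change, with a median difference of 0.02 over 3 tested genes, 0 called by limma and 0 at an unadjusted p under 0.05. Ina, alpha-internexin, the filament of early axons, read 12.23, 12.35 and 12.39 in control and 12.43, 12.42 and 12.44 in knockdown. Its groups lay apart by a narrow margin, with control replicate 1 the lowest of all, and the log2 fold change was 0.11 (SE 0.064, adjusted p = 0.428). A second Ina probe set overlapped between groups, at 0.05. Nefh, the heavy neurofilament subunit, was at 0.02 and Prph, the peripherin of peripheral neurons, at 0.003, both with overlap. The light and medium neurofilament genes were not above the filter: Nefl had means of 5.88 and 5.98 and Nefm of 5.81 and 5.80. Both lay below the array median on every array of each group, where RMA, the method behind these values, compresses differences.

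**Figure D4:**
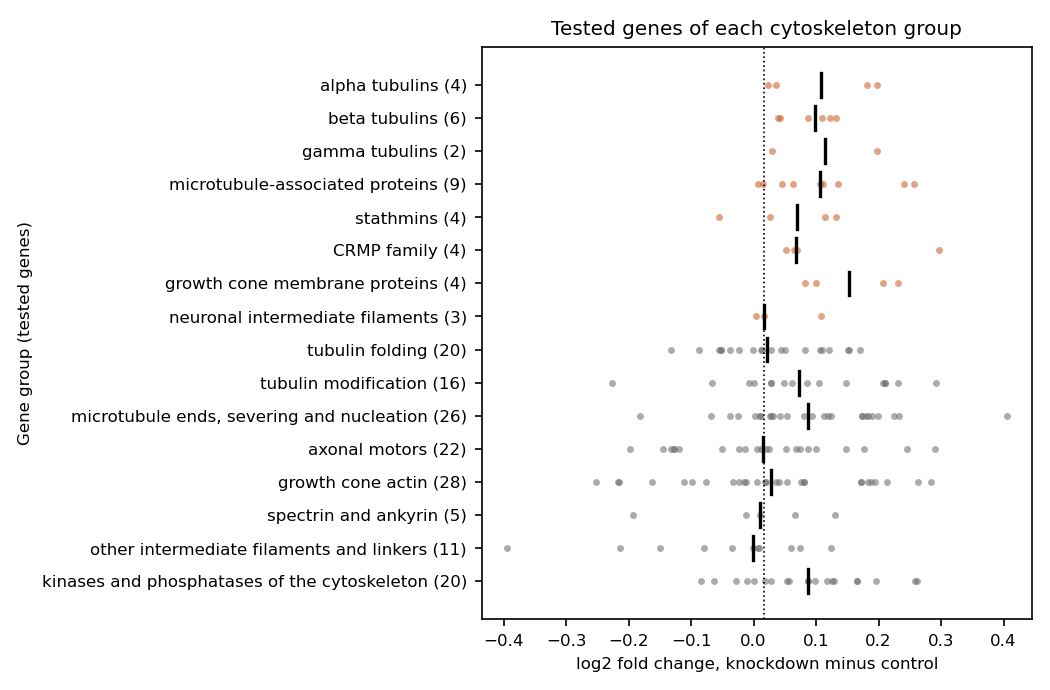
Log2 fold change (horizontal axis, knockdown minus control) of each tested gene, by role for the cytoskeleton genes (orange) and for further cytoskeleton lists (grey), with the number of tested genes in brackets. Black bars are medians and the dotted line is the median of all tested genes, 0.017. The growth cone membrane proteins have the highest median (0.15). The neuronal intermediate filaments and several grey lists, such as spectrin and ankyrin, lie near the dotted line. The grey lists for microtubule ends and for kinases and phosphatases each have a median of 0.087, beside 0.093 over the 36 tested cytoskeleton genes.

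Genes that make, modify or work on the same filaments were counted from further lists. Calls by limma in these lists stand beside 2.79% of all tested genes called higher and 3.88% called lower. Of 20 tubulin folding genes 0 passed in either direction by limma, and their median difference was 0.02. At an unadjusted p under 0.05, 2 of the 20 were higher and 0 lower, beside 18.8% of all tested genes in either direction. Of 16 tubulin modification genes, Ttl, the ligase that restores the terminal tyrosine of alpha tubulin, rose by 0.29 (SE 0.061, limma adjusted p = 0.0506), and Ttll3, a tubulin glycylase, fell by 0.23 on the log2 scale (SE 0.061, adjusted p = 0.0964). Ttl read 11.23, 11.17 and 11.13 in control and 11.46, 11.42 and 11.52 in knockdown, wholly apart. Of these 16 genes, 13 or 81.25% had a difference above 0, beside 55.5% of all tested genes, and the median was 0.073. With the replicate block 4 of the 16 were called higher and 1 lower, beside 8.96% and 8.91% of all tested genes. Of 26 genes for microtubule ends, severing and nucleation 0 passed by limma. At an unadjusted p under 0.05, 7 of the 26 were higher and 0 lower, beside 18.8% of all tested genes in either direction. Of these 26, 22 or 84.6% had a difference above 0, beside 55.5% of all tested genes, and the median was 0.087. In 11 of the 26 the groups lay apart upward, a larger share than the 13.9% of all tested genes. With the replicate block 5 of the 26 were called higher, also a larger share than the 8.96% of all tested genes. Of 22 axonal motor genes, Kif21b, a plus-end kinesin, rose by 0.29 (SE 0.062, adjusted p = 0.054), and the list's median was 0.02.

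Growth cone actin genes went both ways. Among 20 kinases and phosphatases of the cytoskeleton 2 were called higher and 0 lower. Among 28 growth cone actin genes 2 were called higher and 2 lower. Over all tested genes 2.79% were called higher and 3.88% lower. Limk1, the kinase that inactivates cofilin, rose by 0.28 (SE 0.056, limma adjusted p = 0.0448), and Add1, an adducin that caps actin filaments and was named after its value was seen, rose by 0.26 (SE 0.071, adjusted p = 0.0936). Gsn, the severing protein gelsolin, fell by 0.25 on the log2 scale (SE 0.059, adjusted p = 0.0678), and Dbn1, the dendritic spine protein drebrin, fell by 0.22 (SE 0.054, adjusted p = 0.0811). Of 20 kinases and phosphatases of the cytoskeleton, Gsk3b, which phosphorylates tau, MAP1B and CRMP2, rose by 0.26 (SE 0.057, adjusted p = 0.0578). Mapk10, the neuronal JNK3, also rose by 0.26 (SE 0.061, adjusted p = 0.0675). The median of that list was 0.087, and 16 of the 20 or 80% had a difference above 0, beside 55.5% of all tested genes. Of 5 spectrin and ankyrin genes and 11 other intermediate filament and linker genes 0 passed by limma. At an unadjusted p under 0.05 there were 0 and 1, beside 18.8% of all tested genes. None of the calls in these lists held without control replicate 1, 2 or 3 or without knockdown replicate 3.

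The label of the cells was checked against markers. Of 12 sympathetic neuroblast markers, genes typical of the lineage from which neuroblastoma arises, 10 were measured and all 10 were above the filter. Their mean level was 11.13 to 11.17 in the control arrays and 10.85 to 10.96 in the knockdown arrays, the opposite direction to the cytoskeleton genes. By limma 0 were called higher and 4 lower, beside 2.79% and 3.88% of all tested genes. With the replicate block 1 was called higher and 5 lower, beside 8.96% and 8.91% of all tested genes. Of the 10, 3 had a difference above 0, beside 55.5% of all tested genes. Dbh, which makes noradrenaline, fell by 1.08 on the log2 scale, Chgb by 0.48, the transcription factor gene Isl1 by 0.35 and Chga by 0.30, while Elavl4, a neuronal RNA-binding protein gene, stood at 0.19 (adjusted p = 0.149). Markers of other cells mostly lay below the filter. The mean level of 8 fibroblast markers, 3 of them tested, was 6.93 to 6.99 in control and 6.79 to 7.03 in knockdown. For glial markers it was 6.99 to 7.07 and at most 7.10, for myeloid markers 6.54 to 6.55 and 6.41 to 6.64, and for endothelial markers 7.22 to 7.27 and 7.22 to 7.38. Of 7 glial markers 2 were tested, of 5 endothelial markers 2 and of 6 myeloid markers 0, and 0 of all these were called by limma or reached an unadjusted p under 0.05. Among the defining markers Gfap had means of 6.97 and 7.02 and Ptprc of 6.24 and 6.24, below the array medians of 7.49 to 7.59. The part of the fall in neuroblast markers in the cytoskeleton differences was not tested.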

How the data were processed

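RNA of N2A cells was hybridised to Affymetrix Mouse Gene 1.0 ST arrays, 3 control and 3 Pax6 knockdown. The deposited values are log2 summaries per probe set, which the authors made by RMA background correction and quantile normalization before testing genes with limma; for these steps and for the annotation, versions are not given in the sources used here. A change in total RNA is hidden by quantile normalization, and differences near background are compressed by RMA. No value was missing among 35556 probe sets, array medians lay between 7.49 and 7.59, and precision is limited by the number of arrays.

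Probe sets naming 1 gene were kept, and among several of a gene, that of highest mean across all 6. Genes were tested if above the array's median on at least 3 of 6 arrays. Groups were compared with lmFit and eBayes of limma 3.58.1 in R 4.3.3, two-sided, with Benjamini-Hochberg adjustment over the 11424 tested genes and a 10% FDR. The procedure was tested on simulated data with independent noise and added differences larger than most of those seen in the members. That test does not show how well differences of the members' size are found, nor what deviations shared by same-numbered arrays do.

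The members, lists and alternatives were chosen with earlier results of these data known. Named by rule were Pax6, each called member, the largest difference in each role, 10 neuronal marker genes whatever their value, and up to 3 called genes of lowest adjusted p in each further list. Other members were named after their values were seen, so that every member is accounted for.

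Deviations from group means correlated within replicate number at 0.57, 0.32 and 0.23, so same-numbered arrays were treated as pairs, although what a number marks is not stated. Control 3 and knockdown 2 also correlated, at 0.178. Alternatives were the replicate block, array weights, other filters on low or invariant genes, other scalings, the mean of a gene's probe sets, and leaving out arrays.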

Additional observations from a re-analysis of the deposited data

How the results depend on the processing

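The upward shift of the cytoskeleton genes kept its direction under every alternative, while the calls of single genes did not. The median difference was 0.0929 and stayed between 0.0757 and 0.112, except at 0.211 with a filter that keeps the more variable genes, which left 12 members tested, 12 of them above 0. With the other alternatives the share of tested members above 0 was lowest at 83.3%, or 30 of 36, with array weights and without both arrays of replicate 1, beside 97.2% as reported. The members whose knockdown arrays all lay above the controls numbered 13 with arrays centred on their medians and 14 after a second quantile normalization, beside 18. The matching share of all tested genes was not counted under these scalings, so these counts have nothing to be set against. The count called lower was 0 throughout.

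The count called higher moved together with that over all tested genes, which was 319 beside 3 members. It became 7 with the replicate block (1024 over all genes), 16 with array weights, whose estimation stopped before it converged (2639), and 6 after a second quantile normalization (601). It became 1 with the 25th percentile filter (130), 0 with no low-value filter (68) and 0 with the variance filter (20). Without single arrays it ranged from 0 to 5: it was 0 without control replicate 1, 2 or 3 or knockdown replicate 3, where 52, 8, 31 and 7 of all genes were called higher, and 2 and 5 without knockdown replicates 1 and 2, where 156 and 820 were. Without both arrays of replicate 1, 2 or 3, tried after seeing the data, it was 0, where 30, 37 and 0 were. Over all alternatives the adjusted p ran from 0.0074 to 0.623 for Basp1, from 0.00301 to 0.529 for Dpysl2 and from 0.00318 to 0.577 for Map4. Small differences changed sign: Tubb2b was at -0.00722 with array weights and from -0.00499 to 0.067 when arrays were left out, and Stmn2 ran from -0.00307 to 0.0583 when arrays were left out. The cause was not tested. With 3 arrays per group, differences of the size seen in most members, about 0.09, lie within the confidence intervals of the fit around 0.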
